A study of Mus musculus with 6 samples.

Results

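Type I interferon-stimulated genes were measured in mouse T cells given blebbistatin, a small molecule that blocks the motor activity of non-muscle myosin II. The set holds 39 genes picked by symbol, each with a single row among the 47729 genes of every library. RNA was sequenced from activated CD8+ T cells from spleen, in 3 libraries treated with blebbistatin at 2 µM and 3 vehicle libraries, with RNA taken after 24 h. The labels give no strain, genotype, sex or age, do not say what the vehicle was, and do not say whether the libraries came from separate animals or cultures. The deposited files of the vehicle libraries carry the abbreviation pbs, which the labels do not explain. Activation is common to both groups, so no resting cells stand as a baseline. Each p-value is thus set against the spread among these libraries alone, and that spread could be technical.

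Type I interferons bind the receptor pair IFNAR1 and IFNAR2 on almost every cell. The kinases JAK1 and TYK2 then act on transcription factors, among them STAT2, which joins IRF9 in the complex ISGF3. That complex binds the interferon-stimulated response element of its target genes, whose products sense viral RNA, block viral replication and damp the signal again. Interferon gamma, which activated CD8+ T cells make themselves, acts through another receptor, JAK1 and JAK2, and through GAS elements in its target genes, and many targets answer both kinds of interferon.

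The promoter table of RefSeq on GRCm38.p6 held 29 of the 39 genes, with 250 bases before and 50 bases after each start. The core of the response element was searched on both strands as GAAA, any pair of bases NN and GAAA again. It occurred in 13 of the 29 genes, or 44.8%, against 3.99% of the 27025 genes in the table. The core of the GAS element was searched as TTCNNNGAA, and because this pattern reads the same on both strands each match counts once. It occurred in 8 of the 29 genes, or 27.6%, against 9.55% of all genes. The stretches below are those of the 6 tested genes with the largest absolute change among the genes whose match to that core lies wholly before the start, and they show how the element sits in genes that differ in their values below. Capitals mark the matches, overlapping ones run together, and each stretch is written 5′ to 3′ along its gene.
Ifit1: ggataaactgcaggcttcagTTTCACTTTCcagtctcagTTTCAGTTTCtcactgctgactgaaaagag
Ifit3: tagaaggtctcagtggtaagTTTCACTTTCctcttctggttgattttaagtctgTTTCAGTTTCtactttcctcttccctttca
Trim30a: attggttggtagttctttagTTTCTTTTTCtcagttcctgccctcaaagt
Isg15: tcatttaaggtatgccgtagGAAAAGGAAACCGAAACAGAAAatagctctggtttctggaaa
Oas1a: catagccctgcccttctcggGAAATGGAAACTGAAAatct
Bst2: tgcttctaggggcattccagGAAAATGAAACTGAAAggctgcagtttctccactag

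In Isg15, Oas1a and Bst2 the match reads along the gene, and in Ifit1, Ifit3 and Trim30a it lies on the opposite strand. The Ifit1 stretch lies at chr19:34640765-34640833 on the plus strand and that of Ifit3 at chr19:34583353-34583436 on the plus strand. The Trim30a stretch is chr7:104465200-104465249, that of Isg15 chr4:156200855-156200916, that of Oas1a chr5:120907526-120907565 and that of Bst2 chr8:71537567-71537622, all on the minus strand. The first base of the nearest match lay 85 bases before the start in Ifit1, 122 in Ifit3, 36 in Trim30a, 66 in Isg15, 14 in Oas1a and 124 in Bst2. Over the genes in the promoter table, log2 fold changes were taken from a fit with no minimum level. The median was 0.30 for the 13 with the core of the response element (range -0.15 to 0.57). It was 0.19 for the 16 without that core (range -0.10 to 0.47), so the ranges overlapped. Genes too low for the main test below are included, Ifit3b and Rsad2 with the core and Oasl1 and Ifi44 without it. Mx1, which had the largest change of all, is among the 10 genes with no promoter in the table and is in neither group. These are descriptions of short patterns of letters, and no match was tested as a binding site.

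Levels are in TPM, the authors' estimate of transcript abundance corrected for gene length and library size, and were fairly low for most of the genes. The mean over the 6 libraries was at least 100 TPM for 3 genes, between 10 and 100 TPM for 20 and under 10 TPM for 16. Testing used limma on log2(TPM + 1) and needed an average of 1 TPM or more over the 6 libraries, which 34 of the 39 genes reached. The other 5, Rsad2, Mx2, Ifit3b, Oasl1 and Ifi44, were described from a fit with no minimum. None of the 34 met the minimum through the blebbistatin group alone, since each had a vehicle mean of at least 1 TPM.

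With blebbistatin most of the 39 genes lay slightly above vehicle, and a single gene, Mx1, passed the test. Mx1 rose, and 0 of 34 genes fell. Over all 13372 genes tested, 1.40% were called higher and 0.426% lower, 1.82% in all, so a share of 1 in 34 is near the background. At an unadjusted p under 0.05, 15 of the 34 were higher and 0 lower, where 12.9% of all tested genes were higher and 9.99% lower. The 3 blebbistatin libraries lay above all 3 vehicle libraries in 20 of the 39 genes and below them in 0, while 12.7% and 8.17% of the 24825 genes with any signal did so. Among the 34 tested genes 16 lay above without overlap, against 18.0% of all genes tested. Mx1 and Ifit1 were the 2 of these with a log2 fold change of at least 0.5, which 2.60% of all genes tested also reached without overlap. Of the 39 log2 fold changes 35 were above 0, against 57.2% of all genes with any signal. The median was 0.24 over the 39 genes and 0.02 over all genes with any signal, and it was 0.22 over the 34 tested genes and 0.03 over all genes tested. In bulk RNA, fewer cells of a type and less RNA per cell cannot be told apart.

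**Figure D1:**
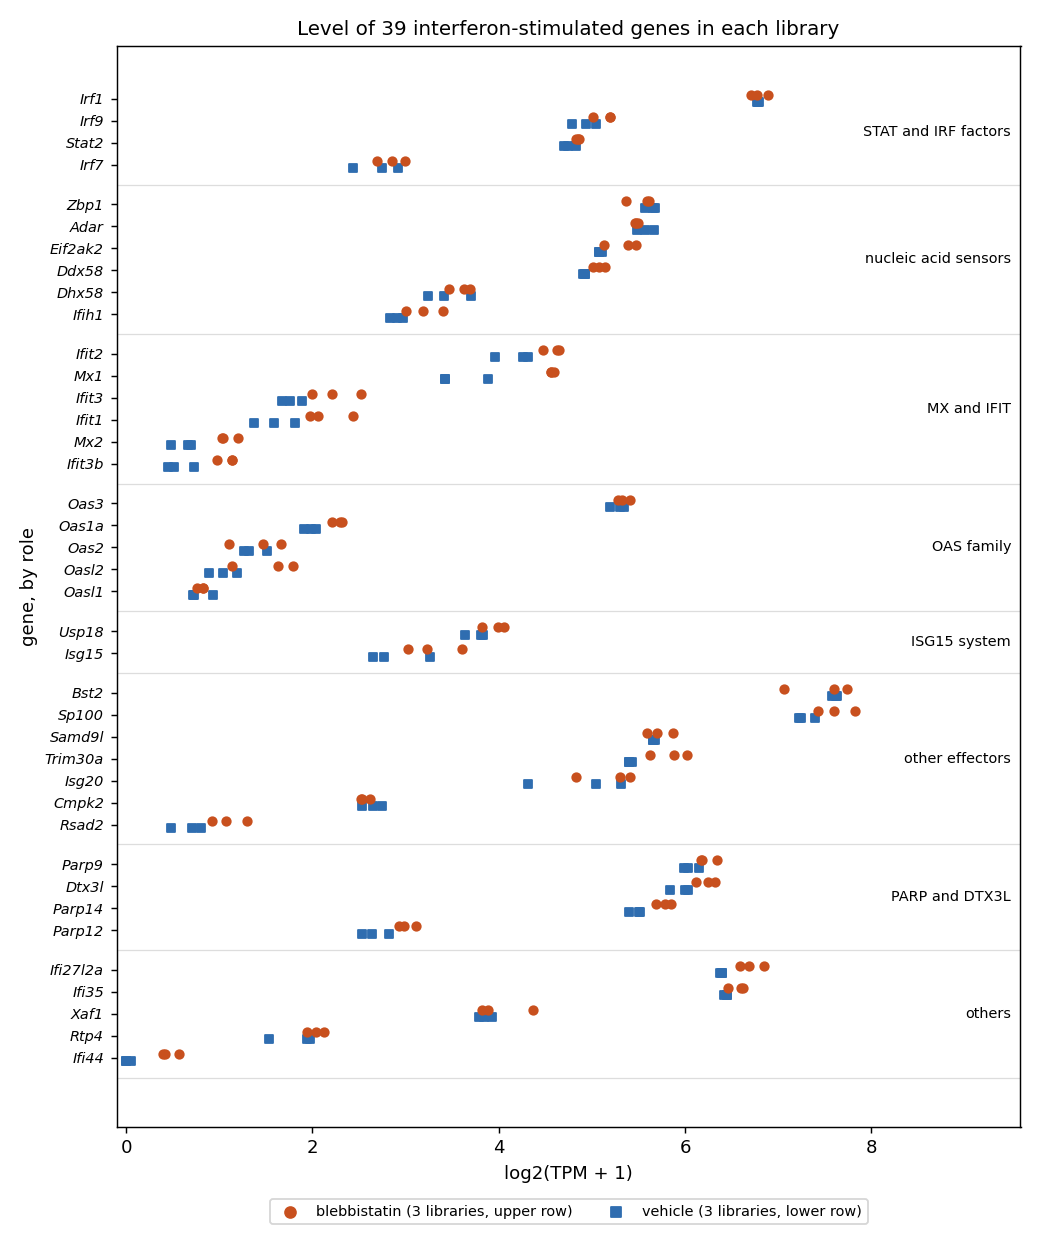
Level of each of the 39 genes in each library on a log2(TPM + 1) axis, with genes grouped by role down the page; circles in the upper row of a gene are the 3 blebbistatin libraries and squares in the lower row the 3 vehicle libraries. Mx1 is the gene whose groups stand farthest apart, and 20 of the 39 genes have all circles to the right of all squares.

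The MX and IFIT genes had the largest differences as a group. Mx1, a dynamin-like GTPase that blocks the replication of influenza and related viruses, had 23.1, 22.6 and 22.6 TPM in the blebbistatin libraries, against 13.8, 9.75 and 9.72 TPM in the vehicle libraries. The treated libraries were close together, and vehicle 1 was the highest of the vehicle libraries. The mean was 22.8 ± 0.302 TPM with blebbistatin and 11.1 ± 2.33 TPM with vehicle (SD, n = 3 each), a log2 fold change of 0.99 (SE 0.13, limma with Benjamini-Hochberg, adjusted p = 0.0247). The call was lost in several other fits. With no minimum level the limma adjusted p of Mx1 was 0.068. Its limma adjusted p was 0.0558 without blebbistatin 1, 0.0235 without blebbistatin 2 and 0.114 without blebbistatin 3. It was 0.0278, 0.093 and 0.0907 without vehicle 1, 2 and 3. Over all genes 120, 1090 and 3 were called without blebbistatin 1, 2 and 3, and 13, 11 and 7 without vehicle 1, 2 and 3, in place of 244. Mx1 lies on chromosome 16 at 97447035 to 97462907 on the minus strand in GRCm38. GENCODE calls it protein-coding, RefSeq lists it as a transcribed pseudogene, and many laboratory mouse strains carry a defective Mx1, so the RNA level says nothing of a working protein. Of its 50-base windows 4.8% also occur in Mx2.

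Mx2, its neighbour 72400 bases away and annotated as a polymorphic pseudogene, had 1.3, 1.04 and 1.05 TPM with blebbistatin, against 0.397, 0.588 and 0.621 TPM with vehicle. The groups did not overlap, and the level was low, with 24 to 29 implied fragments in each blebbistatin library and 9 to 14 in each vehicle library. Its log2 fold change in the fit with no minimum was 0.48 (SE 0.10, limma adjusted p = 0.149).

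Among the IFIT proteins, IFIT1 binds RNA ends that mark a transcript as foreign. The 4 IFIT genes of the set stand in a row on chromosome 19. Their order is Ifit2, Ifit3, Ifit3b and Ifit1, with gaps of 7111, 19238 and 27469 bases. Ifit2 had 23.6, 21.2 and 24.0 TPM with blebbistatin, against 14.6, 18.2 and 18.9 TPM with vehicle, and its log2 fold change was 0.40 (SE 0.11, limma adjusted p = 0.113). Ifit1 had 3.17, 2.93 and 4.40 TPM with blebbistatin, against 2.00, 1.58 and 2.51 TPM with vehicle, with a log2 fold change of 0.57 (SE 0.18, limma adjusted p = 0.138). In both genes every treated library lay above every vehicle library, yet neither passed. Ifit3 had 4.76, 3.62 and 2.99 TPM with blebbistatin, against 2.20, 2.69 and 2.39 TPM with vehicle (log2 fold change 0.47, SE 0.16, limma adjusted p = 0.16). Ifit3b had 1.2, 0.966 and 1.2 TPM with blebbistatin, against 0.363, 0.428 and 0.654 TPM with vehicle (log2 fold change 0.52 in the fit with no minimum, SE 0.11, limma adjusted p = 0.14). Ifit3 shares 51.2% of its 50-base windows with Ifit3b, so the split of reads between this pair is uncertain, although neither gene's groups overlapped. All 6 MX and IFIT genes lay above vehicle without overlap, and 1 of the 4 tested passed. Of all genes with any signal 12.7% lay above without overlap, and 1.40% of all tested genes were called higher.

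**Figure D2:**
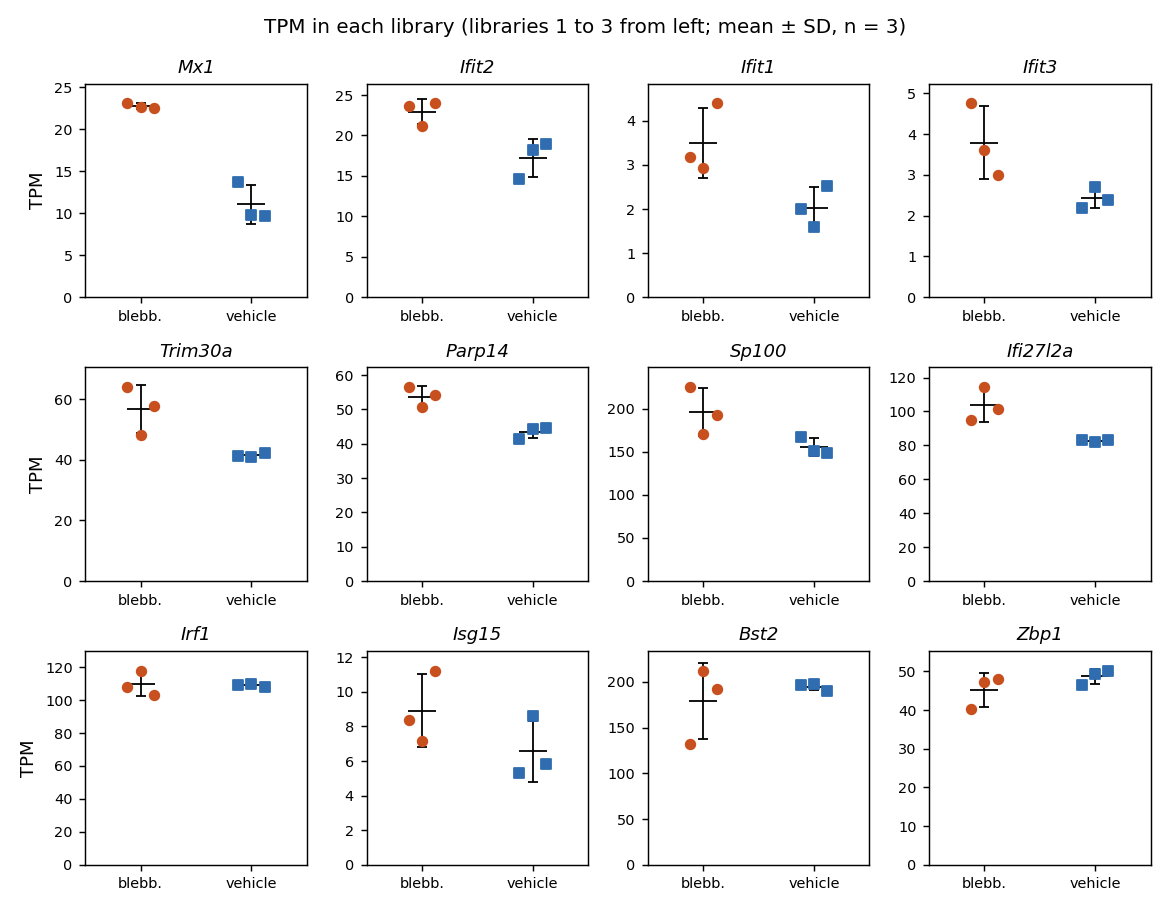
TPM of 12 of the genes in each library, on linear axes that start at 0, with blebbistatin libraries as circles at the left and vehicle libraries as squares at the right of each panel, libraries 1 to 3 from left to right, and the mean ± SD (n = 3). Mx1, Ifit2, Ifit1, Ifit3, Trim30a, Parp14, Sp100 and Ifi27l2a do not overlap between groups, whereas Irf1, Isg15, Bst2 and Zbp1 do.

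The 4 factors that drive the response had log2 fold changes above 0 and overlapping groups. Irf1, a transcription factor induced by interferon gamma, had 108, 118 and 103 TPM with blebbistatin, against 109, 109.6 and 108 TPM with vehicle. Its log2 fold change was 0.01 (SE 0.06), with the sign reversed under FPKM, under median-ratio scaling and without blebbistatin 2. Irf9 and Stat2, which act together in ISGF3, averaged 34.2 ± 2.55 and 27.8 ± 0.429 TPM with blebbistatin and 29.4 ± 2.74 and 26.0 ± 1.23 TPM with vehicle. Irf7, the factor that amplifies interferon alpha production, averaged 6.24 ± 0.744 TPM with blebbistatin and 5.56 ± 1.07 TPM with vehicle. The log2 fold changes were 0.21 for Irf9 (SE 0.09), 0.10 for Stat2 (SE 0.06) and 0.15 for Irf7 (SE 0.15), so that of Irf9 was close to the median of the set. In these 4 genes limma adjusted p lay between 0.221 and 0.961, and 0 had an unadjusted p under 0.05.

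Among the sensors of nucleic acids 0 of 6 passed limma, and 3 had an unadjusted p under 0.05. All 3 were higher. Of all tested genes 12.9% were higher at that unadjusted p, and 18.0% lay above vehicle without overlap. Eif2ak2, the RNA-activated kinase PKR that stops translation, had 43.4, 34.1 and 40.7 TPM with blebbistatin, against 32.8, 32.7 and 33.4 TPM with vehicle. Ddx58, which encodes the RNA sensor RIG-I, had 31.3, 32.9 and 34.3 TPM with blebbistatin, against 29.5, 29.5 and 29.1 TPM with vehicle. Ifih1, which encodes the RNA sensor MDA5, had 9.56, 7.05 and 8.12 TPM with blebbistatin, against 6.12, 6.49 and 6.85 TPM with vehicle. These 3 genes did not overlap between groups, with log2 fold changes of 0.24, 0.16 and 0.30 and limma adjusted p of 0.188, 0.2 and 0.205. Dhx58, a regulator of both sensors, averaged 11.1 ± 0.960 TPM with blebbistatin and 10.05 ± 1.83 TPM with vehicle. Zbp1, a sensor of left-handed nucleic acid that can start necroptosis, averaged 45.2 ± 4.31 TPM with blebbistatin and 48.7 ± 1.90 TPM with vehicle. Adar, an enzyme that edits double-stranded RNA, averaged 43.5 ± 0.530 TPM with blebbistatin and 46.7 ± 3.03 TPM with vehicle. Zbp1 and Adar were thus among the 4 genes with a log2 fold change below 0, at -0.11 and -0.10, and their groups overlapped. Exons of Chrnb2 on the opposite strand cover 16.8% of the exon length of Adar, and the reads of the pair cannot be told apart in libraries without strand.

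The OAS genes, whose enzymes make oligoadenylates that activate RNase L, differed among themselves. Oas3, the most abundant, had 38.0, 39.2 and 41.5 TPM with blebbistatin, against 35.5, 39.8 and 38.5 TPM with vehicle, and the groups overlapped. Oas1a had 3.64, 3.98 and 3.91 TPM with blebbistatin, against 3.11, 2.75 and 2.96 TPM with vehicle. It was the only OAS gene whose groups did not overlap, with a log2 fold change of 0.30 (SE 0.11, limma adjusted p = 0.172). That is 1 of 5 OAS genes, where 12.7% of all genes with any signal lay above without overlap. Of its 50-base windows 57.6% occur in other genes, mainly Oas1g and Oas1b, so its value is uncertain. Oasl2 averaged 1.92 ± 0.645 TPM with blebbistatin and 1.07 ± 0.213 TPM with vehicle, with blebbistatin 2 at 1.2 TPM among the vehicle values. Oas2 averaged 1.70 ± 0.511 TPM with blebbistatin and 1.59 ± 0.237 TPM with vehicle, and the sign of its log2 fold change of 0.05 depended on the scaling. Oasl1, which in mice restrains the translation of Irf7, averaged 0.748 ± 0.0447 TPM with blebbistatin and 0.735 ± 0.151 TPM with vehicle.

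Isg15, a ubiquitin-like protein attached to others during the response, had 8.38, 7.14 and 11.2 TPM with blebbistatin, against 5.29, 8.58 and 5.81 TPM with vehicle. Vehicle 2 lay above blebbistatin 1 and 2, and the log2 fold change of 0.40 had an SE of 0.21 (limma adjusted p = 0.291). Usp18, the protease that removes ISG15 and restrains the receptor, averaged 14.5 ± 1.27 TPM with blebbistatin and 12.6 ± 0.967 TPM with vehicle, and the groups overlapped.

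Other effectors did not move together. Trim30a, a member of the TRIM family, had 64.1, 48.3 and 57.8 TPM with blebbistatin, against 41.3, 41.0 and 42.2 TPM with vehicle (log2 fold change 0.43, SE 0.10, limma adjusted p = 0.0862). Sp100, a protein of nuclear bodies, had 225, 171 and 192 TPM with blebbistatin, against 168, 151 and 148 TPM with vehicle (log2 fold change 0.32, SE 0.10, limma adjusted p = 0.142). Neither overlapped, and blebbistatin 1 was the highest and blebbistatin 2 the lowest treated library in both. Bst2, or tetherin, which holds budding virus at the cell surface, had 132, 212 and 192 TPM with blebbistatin, against 196, 197 and 190.2 TPM with vehicle. Blebbistatin 1 stood far below the other 5 libraries, and without it the log2 fold change of -0.15 became 0.06. Samd9l, an antiviral factor, had 57.4, 47.3 and 50.8 TPM with blebbistatin, against 50.3, 49.3 and 49.4 TPM with vehicle, with overlap. Isg20, an exonuclease, varied widely, at 27.3, 41.4 and 38.6 TPM with blebbistatin and 31.9, 38.6 and 18.9 TPM with vehicle.

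Rsad2, which encodes viperin, and Cmpk2, a mitochondrial nucleotide kinase, are neighbours on chromosome 12, transcribed away from each other with 12751 bases between them. Rsad2 had 0.901, 1.47 and 1.11 TPM with blebbistatin, against 0.631, 0.400 and 0.750 TPM with vehicle, without overlap. Cmpk2 had 5.13, 4.80 and 4.73 TPM with blebbistatin, against 4.79, 5.27 and 5.73 TPM with vehicle, with overlap. In the fit with no minimum the log2 fold changes were 0.44 (SE 0.14) and -0.09 (SE 0.11), and the difference between the neighbours was not tested.

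All 4 genes of ADP-ribosylation lay above vehicle without overlap, and 0 passed limma, with 4 at an unadjusted p under 0.05. Of all tested genes 18.0% lay above without overlap, and 12.9% were higher at an unadjusted p under 0.05. Parp14, an ADP-ribosyltransferase, had 56.6, 50.7 and 54.1 TPM with blebbistatin, against 41.3, 44.3 and 44.7 TPM with vehicle (log2 fold change 0.30, SE 0.07, limma adjusted p = 0.0764). Among the 34 tested genes this adjusted p was the lowest after that of Mx1. Dtx3l, a ubiquitin ligase, had 78.7, 68.2 and 75.0 TPM with blebbistatin, against 56.2, 62.8 and 64.4 TPM with vehicle. Parp9, its partner in a complex, had 80.4, 71.0 and 71.5 TPM with blebbistatin, against 62.6, 69.7 and 64.4 TPM with vehicle. The log2 fold changes of this pair were 0.27 and 0.18, with limma adjusted p of 0.122 and 0.207. The genes of Dtx3l and Parp9 overlap by 682 bases on opposite strands, and 8.0% and 9.4% of their exon lengths coincide with exons of the other. Parp12 averaged 7.05 ± 0.536 TPM with blebbistatin and 5.37 ± 0.661 TPM with vehicle.

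Ifi27l2a, a small interferon-induced membrane protein, had 95.2, 114 and 102 TPM with blebbistatin, against 83.1, 82.2 and 83.3 TPM with vehicle (log2 fold change 0.32, SE 0.07, limma adjusted p = 0.0853). Ifi35 had 86.9, 96.2 and 97.5 TPM with blebbistatin, against 86.2, 84.3 and 86.7 TPM with vehicle. The groups of both genes stood apart, for Ifi35 by a small margin at blebbistatin 1, and exons of a gene on the opposite strand cover 16.8% of Ifi35. Xaf1, an antagonist of the apoptosis inhibitor XIAP, averaged 15.6 ± 3.60 TPM with blebbistatin and 13.5 ± 0.735 TPM with vehicle, and blebbistatin 1, at 19.7 TPM, was the only treated library outside the vehicle range. Rtp4, a chaperone of receptors, averaged 3.11 ± 0.249 TPM with blebbistatin and 2.55 ± 0.568 TPM with vehicle. Ifi44 was at 0.483, 0.319 and 0.340 TPM with blebbistatin and at 0, 0.0381 and 0 TPM with vehicle, which is an implied 43 fragments in all over the blebbistatin libraries and 1 over the vehicle libraries. Its groups did not overlap, and its limma adjusted p with no minimum was 0.0623 (log2 fold change 0.45, SE 0.06).

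**Figure D3:**
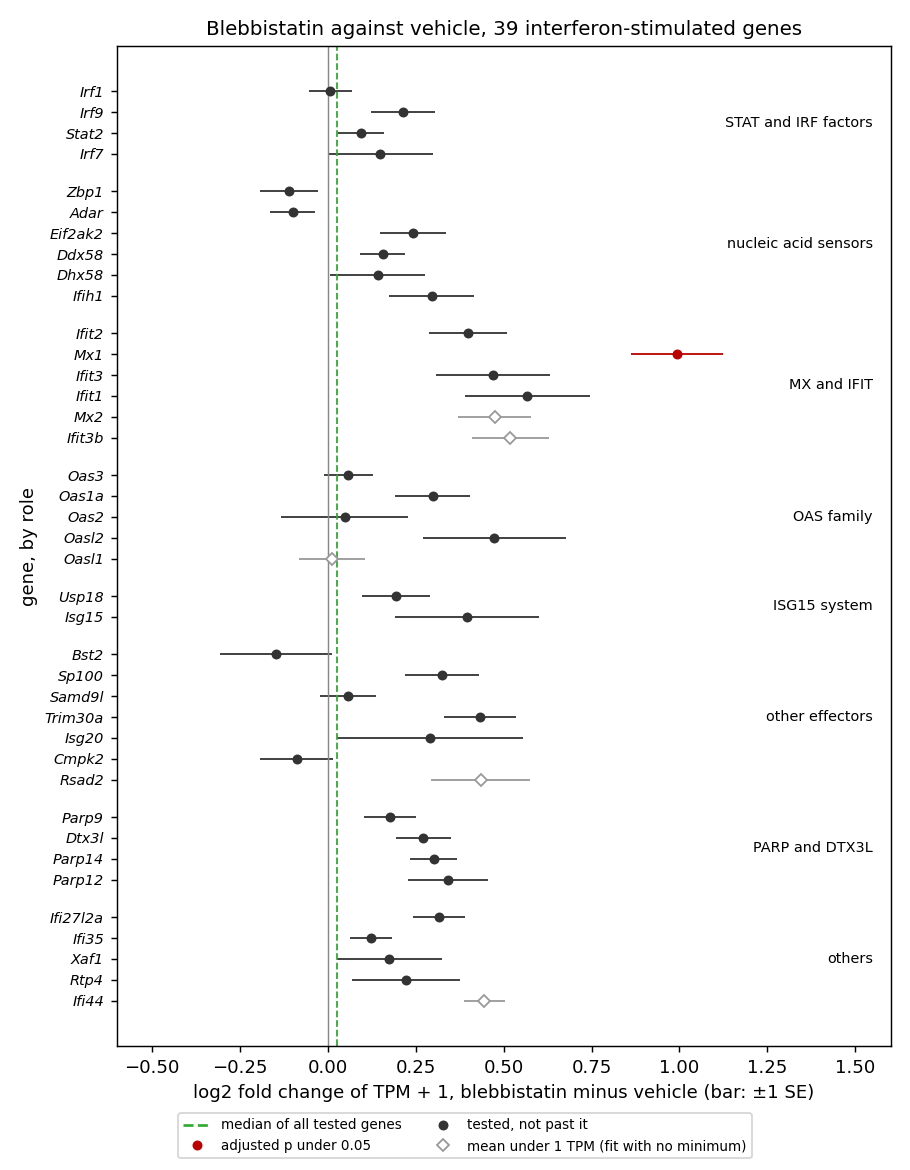
Log2 fold change of TPM + 1, blebbistatin minus vehicle, for the 39 genes with bars of ±1 SE (3 libraries in each group); the dashed line is the median of all 13372 tested genes, open diamonds are the 5 genes under the minimum level. Mx1 at 0.99 is the only gene past the threshold, and Bst2, Zbp1, Adar and Cmpk2 lie below 0.

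The difference from vehicle was seen in each treated library and was smallest in blebbistatin 2. Against the vehicle mean, the median log2 difference over the 39 genes was 0.29 in blebbistatin 1, 0.16 in blebbistatin 2 and 0.27 in blebbistatin 3, while over all tested genes it was 0.05, 0.02 and 0.03. The number of the 39 genes above the highest vehicle library was 27, 26 and 27 in blebbistatin 1, 2 and 3, against 43.1%, 34.1% and 37.4% of all tested genes. A vehicle library set against the mean of the other vehicle libraries had a median of -0.03, 0.01 and 0.01. The summed level of the 39 genes was 1420.0, 1433 and 1453 TPM with blebbistatin and 1276, 1296 and 1263 TPM with vehicle. Without blebbistatin 2 the genes of the set past the threshold were 6, with Eif2ak2, Sp100, Trim30a, Parp14 and Ifi27l2a beside Mx1, all higher. Over all genes that fit called 496 higher and 594 lower. The genes of the set past the threshold were 0 without blebbistatin 1, blebbistatin 3, vehicle 2 or vehicle 3, and without vehicle 1 Mx1 alone.

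**Figure D4:**
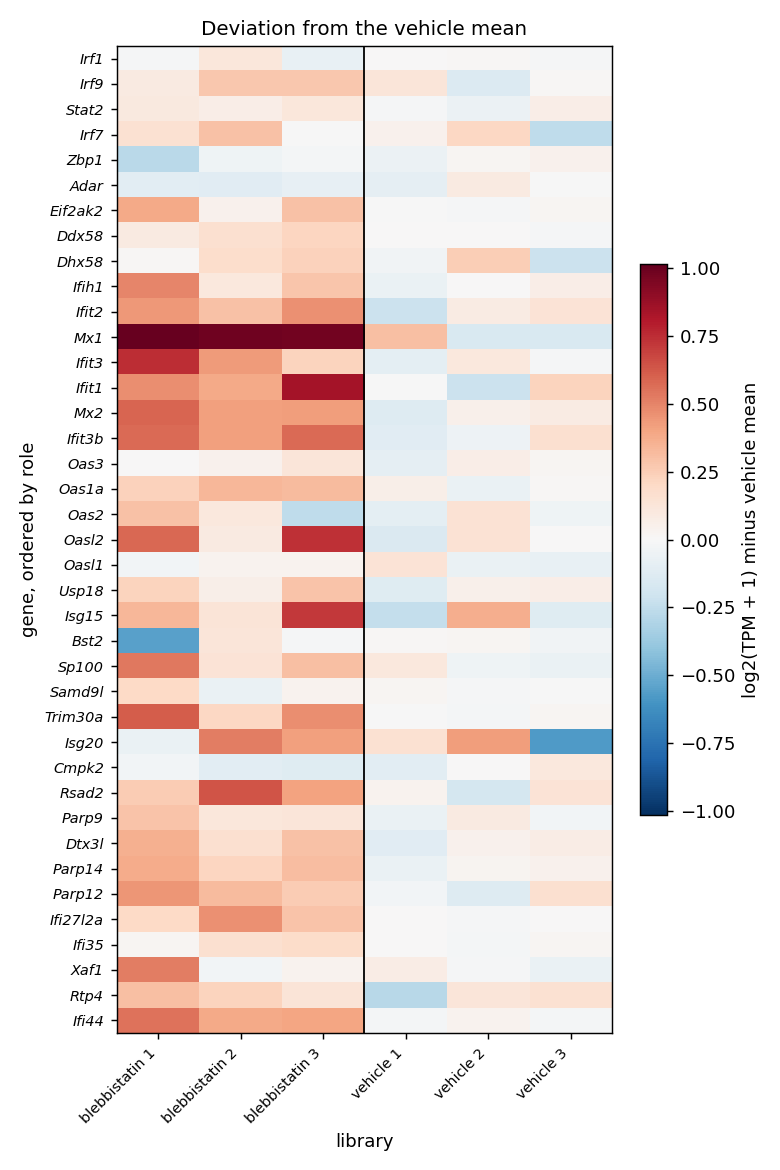
Log2(TPM + 1) minus the vehicle mean for the 39 genes in rows, ordered by role, and the libraries in columns with blebbistatin at the left of the line and vehicle at the right. Red cells prevail in the blebbistatin columns, Bst2 in blebbistatin 1 is the darkest blue cell among them, and blebbistatin 2 is paler than the other treated libraries in Oasl2, Sp100 and Trim30a.

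Other genes of the interferon pathway were taken from lists of ligands, receptors, signalling and sensing genes and further stimulated genes, of which 84 were tested. Of these 6 rose and 0 fell by limma, where 1.40% of all tested genes rose and 0.426% fell. At an unadjusted p under 0.05 were 36 of the 84, in either direction, against 12.9% of all tested genes higher and 9.99% lower. Of the 105 listed genes with a row, 36 lay above vehicle without overlap and 6 below. Over all genes with any signal these shares were 12.7% and 8.17%. The ligands of the type I and lambda families were at or near 0, with 7 of 11 listed ligands (Ifna1, Ifna2, Ifna5, Ifne, Ifnk, Ifnl2 and Ifnl3) at 0 TPM in each library. Ifnb1 was at 0.456 TPM in blebbistatin 3 and 0 in the other libraries, and Ifna4 at 0.145 TPM in blebbistatin 2 and 0 in the others. Ifnab was at 0.207, 0 and 0 TPM with blebbistatin and at 0, 0.157 and 0.0632 TPM with vehicle. Ifng, the ligand of the other receptor, had 20.1, 15.8 and 18.9 TPM with blebbistatin, against 16.1, 17.02 and 15.6 TPM with vehicle, with overlap (limma adjusted p = 0.395).

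Among the receptors Ifngr1, the ligand-binding chain for interferon gamma, rose. It had 209, 210.0 and 206 TPM with blebbistatin, against 167, 160.4 and 165 TPM with vehicle (log2 fold change 0.34, SE 0.04, limma adjusted p = 0.0233). That call was lost with no mean-variance trend (adjusted p = 0.056), without blebbistatin 3 (0.116) and without vehicle 1, 2 or 3 (0.104, 0.12 and 0.11). Its partner Ifngr2 averaged 10.2 ± 0.951 TPM with blebbistatin and 8.25 ± 0.615 TPM with vehicle, and Ifnar1 55.3 ± 0.400 TPM with blebbistatin and 49.5 ± 2.98 TPM with vehicle. Neither overlapped and neither passed (limma adjusted p = 0.183 and 0.194). Ifnar2 averaged 37.9 ± 2.24 TPM with blebbistatin and 38.4 ± 2.61 TPM with vehicle, and Ifnlr1, of the lambda receptor, was listed at 0 in each library.

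Ikbke, a kinase that activates IRF3, rose to 78.1, 78.1 and 73.7 TPM with blebbistatin, against 56.9, 55.1 and 58.0 TPM with vehicle (log2 fold change 0.43, SE 0.06, limma adjusted p = 0.0233). The adjusted p of Ikbke was 0.0963 without blebbistatin 3 and 0.104, 0.11 and 0.0907 without vehicle 1, 2 and 3. Of the 13 kinases, factors and inhibitors downstream of the receptors 0 passed limma, and 5 had an unadjusted p under 0.05. Of those, Jak2 and Pias1 were higher, and Irf8, Socs1 and Socs3 lower. Over all tested genes 12.9% were higher and 9.99% lower at that unadjusted p. Jak2, the kinase of the interferon gamma receptor, had 44.9, 37.6 and 39.8 TPM with blebbistatin, against 28.1, 31.0 and 29.98 TPM with vehicle, without overlap (log2 fold change 0.44, SE 0.08, limma adjusted p = 0.0517). Irf8, a transcription factor, averaged 79.4 ± 6.48 TPM with blebbistatin and 99.6 ± 10.2 TPM with vehicle. Socs3, a cytokine-induced inhibitor of signalling, averaged 16.6 ± 2.62 TPM with blebbistatin and 22.1 ± 1.72 TPM with vehicle. Both lay below vehicle without overlap (log2 fold change -0.32 and -0.41, limma adjusted p = 0.124 and 0.135). Jak1 averaged 178 ± 9.06 TPM with blebbistatin and 162 ± 4.44 TPM with vehicle, above vehicle without overlap (limma adjusted p = 0.222). Tyk2 averaged 31.3 ± 2.43 TPM with blebbistatin and 31.6 ± 0.690 TPM with vehicle. Irf3 averaged 56.1 ± 3.32 TPM with blebbistatin and 60.6 ± 3.83 TPM with vehicle, and the groups of Tyk2 and Irf3 overlapped. Socs1, an inhibitor of JAK kinases that cytokines induce, had 35.2, 127 and 52.4 TPM with blebbistatin, against 127, 132 and 140.0 TPM with vehicle. Blebbistatin 2 was just under the lowest vehicle value and the other treated libraries were far below it (log2 fold change -1.10, SE 0.41, limma adjusted p = 0.179).

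Of 56 further stimulated genes tested, 4 rose and 0 fell, where 1.40% of all tested genes rose and 0.426% fell. Mndal, of the interferon-inducible family of DNA-binding proteins, averaged 123 ± 13.1 TPM with blebbistatin and 88.3 ± 0.861 TPM with vehicle. Sp140, a nuclear body protein related to Sp100, averaged 58.5 ± 4.65 TPM with blebbistatin and 43.7 ± 0.879 TPM with vehicle. Casp4, which encodes the inflammatory caspase of the noncanonical pathway, averaged 16.2 ± 1.79 TPM with blebbistatin and 10.3 ± 0.734 TPM with vehicle. Ms4a4c, a membrane protein, averaged 47.5 ± 3.43 TPM with blebbistatin and 34.3 ± 2.16 TPM with vehicle. The log2 fold changes were 0.47, 0.41, 0.59 and 0.46, and limma adjusted p lay between 0.0449 and 0.0451. With no minimum level the adjusted p of Mndal, Sp140, Casp4 and Ms4a4c was 0.0947, 0.0793, 0.0977 and 0.0858, and with no mean-variance trend 0.0756, 0.0712, 0.0554 and 0.0679, so each call was lost. That of Ms4a4c was also 0.0521 with median-ratio scaling, 0.052 with quantile scaling and 0.0586 with the length and GC correction, and that of Casp4 0.0602 with quantile scaling. The median over the 56 genes was 0.17. The pathway calls also changed with the libraries used, at 2, 18 and 0 genes past the threshold without blebbistatin 1, 2 and 3 and 0 without vehicle 1, 2 or 3.

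**Figure D5:**
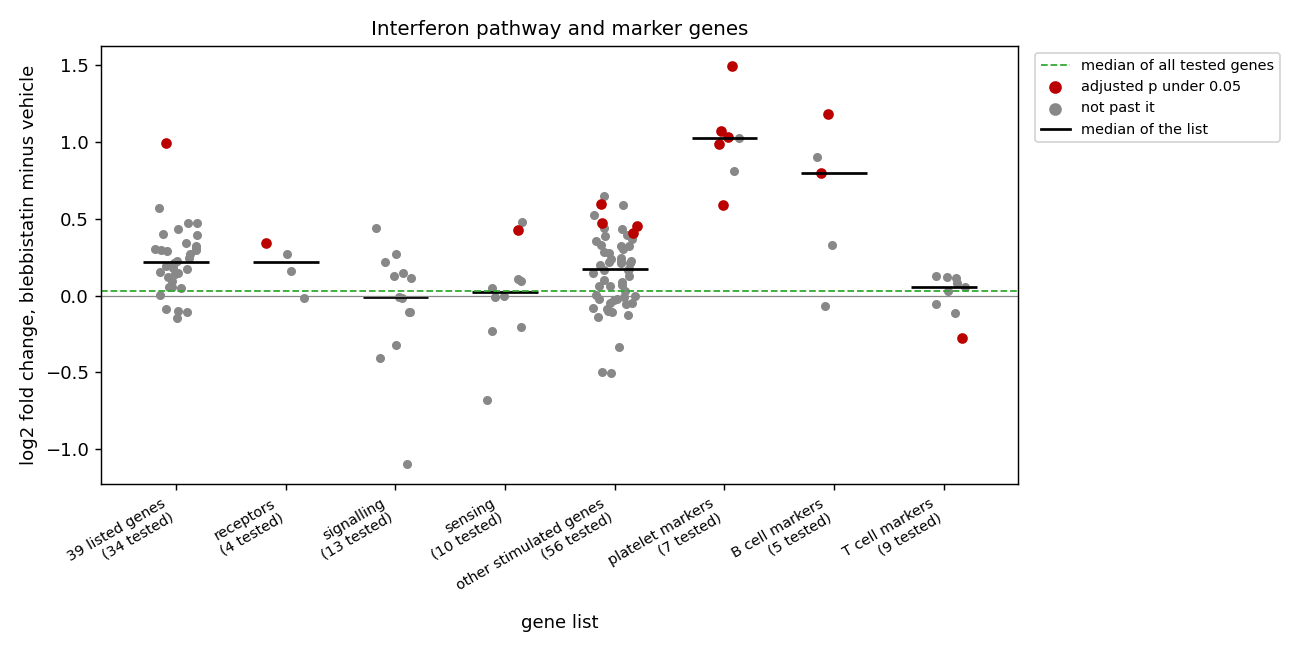
Log2 fold change, blebbistatin minus vehicle, of each tested gene in the set, in the lists of the interferon pathway and in 3 marker lists; red points passed limma at an adjusted p under 0.05, black bars are list medians and the dashed line is the median of all tested genes. The medians are 0.22 for the set and 0.17 for further stimulated genes, and 1.03 for platelet markers.

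Markers of other cells were measured beside these genes. For comparison, 1.40% of all tested genes were called higher by limma and 0.426% lower. At an unadjusted p under 0.05 the shares were 12.9% higher and 9.99% lower. Without overlap, 18.0% of all tested genes lay above vehicle and 13.0% below. The CD8+ T cell label fitted the markers, with Cd8a at 426 to 433 TPM with blebbistatin and 409 to 415 TPM with vehicle, and Cd4 at no more than 0.244 TPM. Of 9 T cell markers tested 0 rose and 1, Thy1, fell. Their summed level was 4602 to 4775 TPM with blebbistatin and 4800 to 4850 TPM with vehicle. Thy1, the most abundant of them, averaged 1170 TPM with blebbistatin and 1416 TPM with vehicle. Lck also lay below vehicle without overlap, and Cd8a and Cd8b1 lay above it. The summed level of 8 platelet markers was 136 to 152 TPM with blebbistatin and 59.9 to 68.2 TPM with vehicle, and 5 of the 7 tested rose. Of 10 B cell markers 2 of 5 tested rose, the MHC class II gene H2-Eb1 and the light chain segment Igkc. The summed level of the 10 was 528 to 559 TPM with blebbistatin and 527 to 547 TPM with vehicle, and Ighm made up 87.2% to 93.7% of it. Without Ighm the sum of the other 9 was 63.7, 64.7 and 71.4 TPM with blebbistatin, against 38.0, 38.9 and 33.4 TPM with vehicle, higher without overlap. H2-Aa, of MHC class II, averaged 13.2 ± 1.33 TPM with blebbistatin and 6.69 ± 1.64 TPM with vehicle (limma adjusted p = 0.0511), and Cd79a, of the B cell receptor, 1.216 ± 0.334 TPM with blebbistatin and 0.402 ± 0.0343 TPM with vehicle. The 5 B cell markers that were not tested stayed under the minimum, among them Cd79a and the defining genes Ms4a1 and Pax5. Of the markers of plasmacytoid dendritic cells, the cells that make the most type I interferon, 0 of 5 tested passed limma (3 at an unadjusted p under 0.05) and the defining gene Siglech was at 0 TPM in each library. Their summed level was 214 to 306 TPM with blebbistatin and 285 to 310 TPM with vehicle. Most of it came from Bst2 and Irf8, which T cells express too. The 3 at an unadjusted p under 0.05 were Ccr9 and Spib, both higher, and Irf8, lower. Ccr9, Tcf4 and Spib averaged 3.36, 2.87 and 1.68 TPM with blebbistatin and 2.36, 2.26 and 0.868 TPM with vehicle, without overlap. Irf8 and Cox6a2 lay below vehicle without overlap, Cox6a2 at 0.152 TPM with blebbistatin and 0.814 TPM with vehicle. Of myeloid markers 0 of 2 tested passed (1 at an unadjusted p under 0.05), the defining gene Csf1r was at 0, 0.00308 and 0.0231 TPM with blebbistatin and 0 in each vehicle library, and their summed level was 71.1 to 99.6 TPM with blebbistatin and 90.7 to 92.0 TPM with vehicle. Cst3 made up 83.7% to 92.8% of that sum, and without it the sum was 11.6, 11.2 and 11.2 TPM with blebbistatin, against 7.54, 8.51 and 6.54 TPM with vehicle, without overlap. Most of the rest was Cd68, at 9.25 ± 0.658 TPM with blebbistatin and 6.14 ± 0.938 TPM with vehicle. Cd68 was the only myeloid marker whose groups did not overlap, so that sum does not speak for the other myeloid markers. Cst3 itself averaged 71.6 ± 15.1 TPM with blebbistatin and 83.7 ± 0.429 TPM with vehicle, with overlap. NK cell markers and CD4 T cell markers had 0 of 3 tested past the threshold in each list, with 2 in each at an unadjusted p under 0.05. Their summed levels were 650.2 to 695 and 249 to 290 TPM with blebbistatin and 654 to 686 and 204 to 206 TPM with vehicle. Nkg7 made up 94.8% to 96.1% of the NK sum and Ctla4 90.9% to 94.4% of the CD4 sum, and activated CD8+ T cells express both genes. Without Nkg7 the NK sum was 26.7 to 29.9 TPM with blebbistatin and 31.1 to 35.6 TPM with vehicle. Most of that was Eomes, so the lower sum does not speak for the other NK markers. Eomes averaged 24.9 ± 1.45 TPM with blebbistatin and 31.5 ± 2.06 TPM with vehicle, and Tyrobp 2.51 ± 0.612 TPM with blebbistatin and 1.18 ± 0.222 TPM with vehicle. Neither overlapped and neither passed (limma adjusted p = 0.0883 and 0.102). Ncr1, under the minimum, averaged 0.448 ± 0.156 TPM with blebbistatin and 0.184 ± 0.065 TPM with vehicle, without overlap. Klrb1c, Klra8 and Klra4, also under the minimum, overlapped. Without Ctla4 the CD4 sum was 18.4 to 22.7 TPM with blebbistatin and 11.5 to 16.3 TPM with vehicle. Most of that was Ikzf2, at 18.5 ± 2.53 TPM with blebbistatin and 11.1 ± 2.70 TPM with vehicle, without overlap (limma adjusted p = 0.0896). Foxp3 averaged 1.23 TPM with blebbistatin and 1.48 TPM with vehicle, and Cd40lg 0.54 and 0.52 TPM. Both overlapped, as did Cd4. The part of the platelet, B cell, plasmacytoid dendritic cell, myeloid, NK and CD4 T cell transcripts in the values of the 39 genes was not tested.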

How the data were processed

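The submitters' processing notes name the build mm10 and the tools DESeq2 1.22.2, StringTie 1.3.4 and HISAT2 2.1.0, without saying what each did. Per the labels' protocols, RNA came from a TRIzol-chloroform extraction and was sequenced after library preparation by a TruSeq kit that keeps no strand. The TPM values are the authors' own, and each library totals 1000000. The FPKM values were also made by the authors and served as an alternative scale. The deposited coverage is mean read depth with no normalization. Its ratio to FPKM, with 300 aligned bases taken as 1 fragment, implied 18470000 to 19930000 fragments per library, and the implied fragments of a gene also use its longest transcript, so both are approximate.

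The 13372 genes that averaged 1 TPM or more were compared with limma 3.58.1 (R 4.3.3) on log2(TPM + 1), using an intensity trend in the prior variance, and p-values were adjusted by Benjamini-Hochberg over all 13372 with a threshold of 0.05. This scale understates changes of low genes. Of these genes 244 were called, 187 higher and 57 lower, and after a correction for length and GC content 272 higher and 192 lower. The 39 genes and the lists of pathway and marker genes were chosen with earlier results of these data known. Each of the 39 is named. Values in every library are given for those that passed, for the 10 with the highest level and for those without overlap and with an absolute log2 fold change of at least 0.5, and other genes of interest were given in full after their values were seen. Of the pathway lists, ligands, receptors, Jak1, Tyk2, Irf3, Socs1 and genes that passed are named. Jak2, Pias1, Irf8, Socs3 and the marker genes named were chosen after their values were seen. Some listed genes are not reported here. Of 116 listed pathway genes 11 had no row under the listed symbol. Exon overlap came from GENCODE M21 on GRCm38, which held 99.1% of the gene identifiers, and shared sequence from windows of 50 bases in its transcripts. Scripts were tested on simulated data. Figures were drawn with matplotlib 3.10.9.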

Additional observations from a re-analysis of the deposited data

How the results depend on the processing

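Over 18 alternatives, 30 of the 34 tested genes kept the sign of their log2 fold change in each one. The signs that reversed were those of Oas2 with quantile scaling (-0.032), without blebbistatin 1 (-0.077) and without vehicle 1 (-0.0022), of Irf1 with FPKM (-0.0002), with median-ratio scaling (-0.024) and without blebbistatin 2 (-0.046), of Bst2 without blebbistatin 1 (0.055), and of Samd9l with the length and GC correction (-0.1) and without blebbistatin 1 (-0.018). With a library left out the log2 fold change ran from -0.077 to 0.2 in Oas2, -0.046 to 0.049 in Irf1, -0.28 to 0.055 in Bst2 and -0.018 to 0.12 in Samd9l. The cause of these reversals was not tested. The median of the tested genes, 0.22 in the main fit, ran from 0.16 with a pseudocount of 5 to 0.26 without vehicle 2. The number of genes called in the set, 1 in the main fit, was 0 with no minimum level, where 24825 genes were tested, and 0 with a block on replicate number, and ran from 0 to 6 when a library was left out. Mx1 was past the threshold in 12 of the 18 alternatives, and its log2 fold change ran from 0.80 to 1.15 over all of them, with limma adjusted p from 0.0179 to 0.114. Over all genes, 49 were called with no minimum level, 160 with no mean-variance trend and 464 with the length and GC correction, and from 3 to 1090 with a library left out. Of the pathway genes, 2 were called with no minimum level and 1 with no mean-variance trend, and from 0 to 18 with a library left out.

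The replicate block in limma called 0 of all genes, 0 of the set and 0 of the pathway, with 2628, 11 and 32 at an unadjusted p under 0.05. Over all tested genes, same-numbered libraries did not deviate together, with correlations of 0.01, -0.04 and -0.03 for numbers 1, 2 and 3. Such correlations cannot exclude a pairing that touches few genes. Whether a call lost under the block is a weaker effect therefore cannot be told. Depth limits Ifi44, Ifit3b, Mx2 and Oasl1, which rest on 0 to 29 implied fragments per library.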
